A study of Mus musculus with 21 samples.

Results

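H3K36me3, trimethylation of lysine 36 of histone H3, was compared between Setd2 knockout (KO) and wild-type (WT) C2C12 cells at day 5 in control medium. The 4 libraries examined were 2 WT replicates and 1 library from each of 2 KO lines, out of 20 H3K36me3 peak lists in the series. The other lists come from day 0, day 1 and day 5, in control medium or under methionine restriction. C2C12 is a mouse myoblast line that fuses into muscle fibres in culture. All libraries were made from this line by chromatin immunoprecipitation and sequencing, with Drosophila chromatin added as a spike-in per the labels. How the KO was made, and whether each line is 1 clone, is not stated in the sources used here, and neither SETD2 protein nor RNA was measured in these files. The lines are called line 1 and line 2 as in the labels, although the peak names within the lists call them replicates 1 and 2 of a KO group. The measure was cover, the percent of a gene body inside merged peaks, computed here for the 19304 protein-coding genes that span 2 kb or more. Genes with 50% cover or more are termed marked or covered, and those under 10% are termed missing.

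SETD2 travels with elongating RNA polymerase II and is the main enzyme that adds the third methyl group to lysine 36. The mark therefore lies over the bodies of transcribed genes and is thin at their start. It is read by PWWP-domain proteins such as DNMT3A and by chromodomain proteins such as MORF4L1. In myoblasts, genes of the contractile apparatus are switched on as the cells leave the cell cycle and fuse.

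Covered length fell from WT to line 1 and was lowest in line 2. The WT lists covered 183 and 171 Mb, a mean of 177 ± 8.88 Mb (SD, n = 2). Line 1 covered 74.1 Mb, or 41.8% of the WT mean, and line 2 covered 5.69 Mb, or 3.21%. The exact two-sided permutation test of 2 WT against 2 KO libraries gave p = 0.33 for covered length and for marked genes, the smallest that 2 against 2 allows. The number of peaks was 87398 and 87266 in WT, 64530 in line 1 and 11854 in line 2. Median peak width was 886 and 860 bp in WT, 601 bp in line 1 and 393 bp in line 2. Of the line 1 peaks 69.5% touched a WT peak, against 4.83% of the line 2 peaks. Line 1 at day 5 also stood apart from its own earlier libraries, which covered 17.7 Mb (day 0) and 13.9 Mb (control medium, day 1). Depth is unknown for peak lists, no spike-in scaling was applied here, and a lower cover in every cell cannot be told apart from loss in some of the cells. The part of depth in these values was not tested.

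Setd2 itself was covered to 82.8% and 78.4% in WT, to 24.0% in line 1 and was listed at 0 in line 2. The difference from WT was −56.57 points in line 1 (limma, adjusted p = 9.29e-05) and −80.6 points in line 2 (adjusted p = 5e-06). Peaks over Setd2 report the mark on this gene and not the enzyme, so they do not check the knockout. Along the gene (20 bins from the 5′ end), line 1 was patchy, with 58.2% in the bin centred at 32.5% of the body and 0 in the bins at 12.5%, 62.5% and 92.5%.

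Over all genes, most lost cover in both lines, and more in line 2. The limma fit tested 9048 genes whose cover averaged 5% or more across the 4 libraries. In line 1, 7042 genes were lower (77.8%) and 263 were higher (2.91%). In line 2, 8644 were lower (95.5%) and 15 were higher (0.166%). The median difference was −29.3 points in line 1 and −54.6 points in line 2, against a median difference of 3.94 points between the WT replicates. Each KO line is 1 library, which the fit assumes to vary like the WT groups. Because a shorter list lowers the cover of nearly every gene, the WT lists were also shortened to the strongest peaks that add up to the length of line 1. In these trimmed lists 1236 of 5698 genes were lower in line 1 (21.7%) and 768 were higher (13.5%), with a median difference of −7.66 points. Genes at 0 in both KO lines pass the filter only through WT, cannot come out as higher and stay in the counts of lower genes below. A gene whose libraries other than line 1 average under 5% passes the filter only through line 1. None of these genes came out as lower, but they stay in the totals behind the 77.8% and 21.7%. They made up 117 of the genes tested as deposited and 828 in the trimmed lists. Without them 159 of 8931 genes (1.78%) and 219 of 4870 (4.50%) were higher, and these shares are the ones set beside counts of higher genes below. Line 2, whose list is shorter still, was left as deposited, and 3280 genes were lower in it (57.6%) and 35 higher (0.614%) against the trimmed WT lists.

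**Figure D1:**
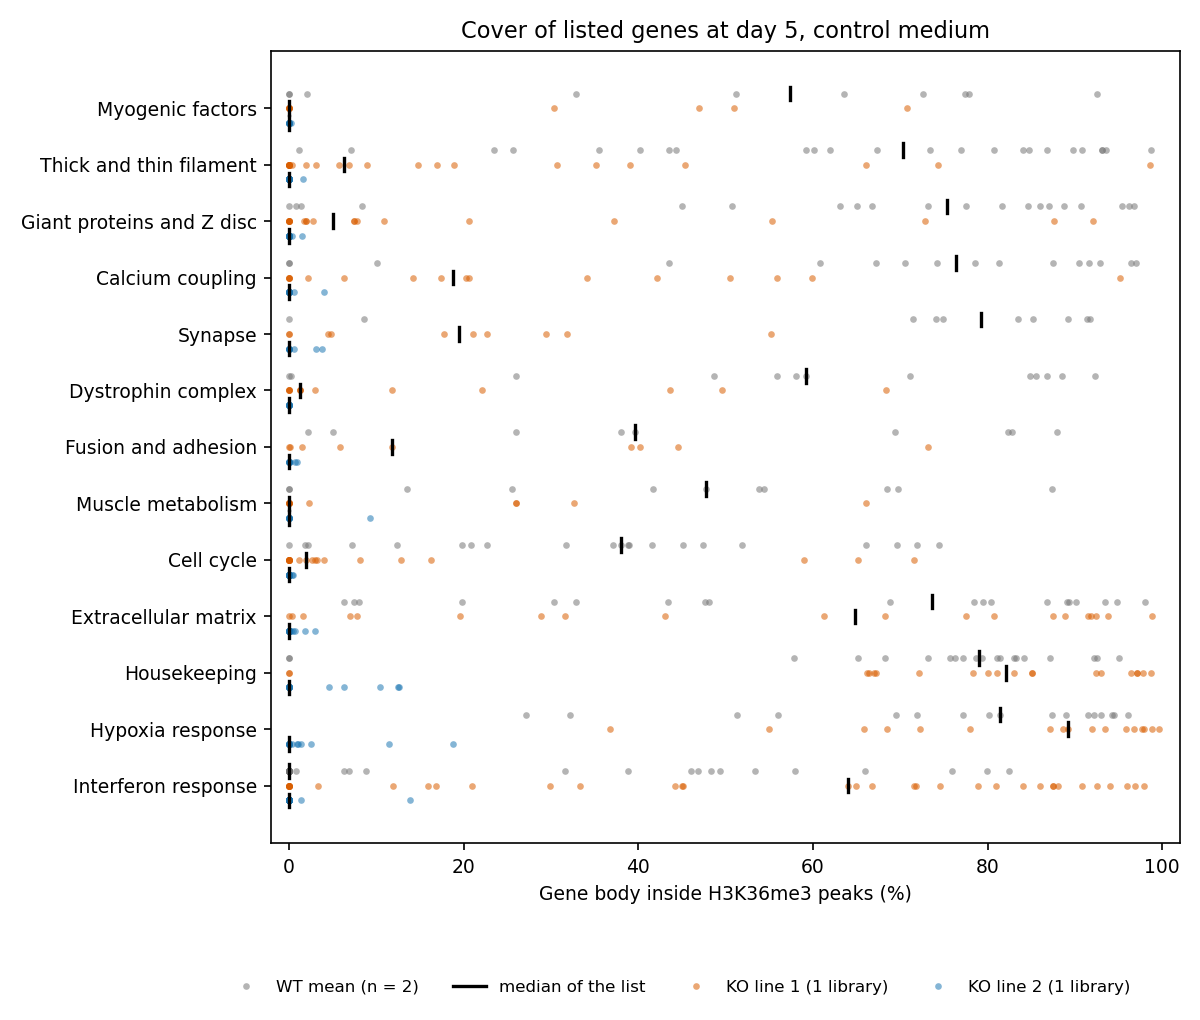
Percent of each gene body inside H3K36me3 peaks (x axis) for genes of 13 lists (y axis) at day 5 in control medium; grey points are means of 2 WT libraries, orange and blue points are single libraries of KO lines 1 and 2, and black bars are list medians. In line 1 the muscle list medians lie between 0 and 19.5%, while the housekeeping median is 82.1% against 79.0% in WT; all line 2 points lie at or below 18.8%.

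The muscle lists hold 117 genes, of which 113 were of at least 2 kb. The median cover of these 113 was 69.4% in WT, 6.29% in line 1 and 0 in line 2. Over all 19304 genes of at least 2 kb the medians were 4.20% in WT and 0 in line 1. Over the 9048 genes tested, which leave out genes of low cover, they were 54.7% and 11%. The last 2 are not like for like with medians over all 113 muscle genes. Of 96 tested, 86 were lower in line 1, beside 77.8% of all genes, 9 were not called and 1 (Trdn) passed the filter only through line 1. Line 2 had 94 lower, beside 95.5% of all genes, a share near that background. In the trimmed lists 48 of 79 were lower in line 1, beside 21.7% of all genes, and of 77 that passed without line 1, 1 was higher. Of the 71 muscle genes marked in both WT libraries, line 1 had 17 covered, 25 partly covered and 29 missing, of which 14 were at 0. Over all 4685 genes marked in both WT libraries, 31.4% were marked in line 1, 26.2% were missing and 10.4% were listed at 0. Line 2 marked none of the 4685, and 4038 of them were at 0.

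Among the myogenic regulators 6 of 7 tested were lower in line 1, near the 77.8% of all genes, and 1 of 5 in the trimmed lists, beside 21.7%. Myog, the factor that drives terminal differentiation (chr1:134290004-134292548), was covered to 91.7% and 93.4% in WT and listed at 0 in both lines. Myod1, which commits cells to the muscle fate, had 66.8% and 78.4% in WT and 0 in both lines. Mef2c, a partner of the myogenic factors, had 36% and 29.8% in WT, 0 in line 1 and 0.186% in line 2. The values of these 3 genes in the KO lines were all below both WT libraries. Six4, a homeobox factor, had 74.3% to 80.5% in WT and 50.9% in line 1, and was called lower in the lists as deposited. The call was lost with trimmed lists (limma, adjusted p = 0.0571) and without WT replicate 1 (0.0547). Mef2d, which is widely expressed, had 79.4% and 76.3% in WT and 70.8% in line 1 and did not pass the test (limma, adjusted p = 0.251). Myf5 and Pax3 were at 0 in all 4 libraries.

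Among 22 tested thick and thin filament genes, 21 were lower in line 1, beside 77.8% of all genes, and 14 of 18 in the trimmed lists, beside 21.7%. Myh3, the embryonic myosin heavy chain, had 96.5% and 89.6% in WT and 0 in both KO lines. Acta1, skeletal actin, had 92.1% and 94.1% in WT, 17% in line 1 and 0 in line 2. The troponins ranged widely in line 1. Tnnc2, the fast troponin C, was listed at 0, Tnnt1 was at 3.08%, Tnni2 at 14.8%, Tnnt3 at 35.2% and Tnnt2 at 45.3%, and each lay below both WT libraries. Tnnc1, the slow troponin C, was covered to 98.6% in line 1, but the WT replicates were 99.5% and 61.9% and the difference did not pass the test (limma, adjusted p = 0.323). Tpm1 and Tpm2, tropomyosins that other cells also use in some isoforms, had 74.3% and 66.1% in line 1 against 91.9% to 95.3% and 85.6% to 88.1% in WT. With trimmed lists the calls of Tpm1, Tpm2 and Tnnt2 were lost (limma, adjusted p = 0.0964, 0.0527 and 0.311), and those of Tnni2 and Myh8 where the day 5 control libraries alone were fitted (0.0501 and 0.0826). The call of Tpm2 was also lost with peaks merged within 1 kb, at −5.42 points (limma, adjusted p = 0.165). The clustered myosin heavy chains Myh1, Myh2, Myh3, Myh4 and Myh8 are near-identical copies, so how reads were placed among them is uncertain.

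The giant and Z-disc genes differed widely in line 1. Ttn, titin, the molecular spring of the sarcomere (chr2:76703980-76982557), had 96.9% and 96.6% in WT, 92.1% in line 1 and 0 in line 2. Its line 1 difference of −4.66 points did not pass the test (limma, adjusted p = 0.55), but it did where the day 5 control libraries alone were fitted (adjusted p = 0.0472). Neb, nebulin, the ruler of the thin filament, had 95.7% and 95.1% in WT and 55.4% in line 1. These 2 long genes thus had like cover in WT and stood far apart in line 1, while both were at 0 in line 2. Flnc, filamin C, had 90.01% and 87.5% in WT and 87.6% in line 1, and Myom2 of the M band had 84.9% and 84.5% in WT and 72.8% in line 1. The Myom2 call (limma, adjusted p = 0.0422) was lost with trimmed lists (adjusted p = 0.067), with peaks merged within 1 kb (−3.92 points, 0.498), without either WT replicate (0.0882 and 0.0779) and with the replicate block (0.0505). In contrast Nrap was at 2.77%, Actn2 at 1.77%, Csrp3 at 1.98%, and Actn3 and Unc45b were at 0 in line 1, each with at least 59.1% in both WT libraries. Of 16 tested genes, 13 were lower in line 1, a share near the 77.8% of all genes, and 9 of 13 in the trimmed lists, beside 21.7%.

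**Figure D2:**
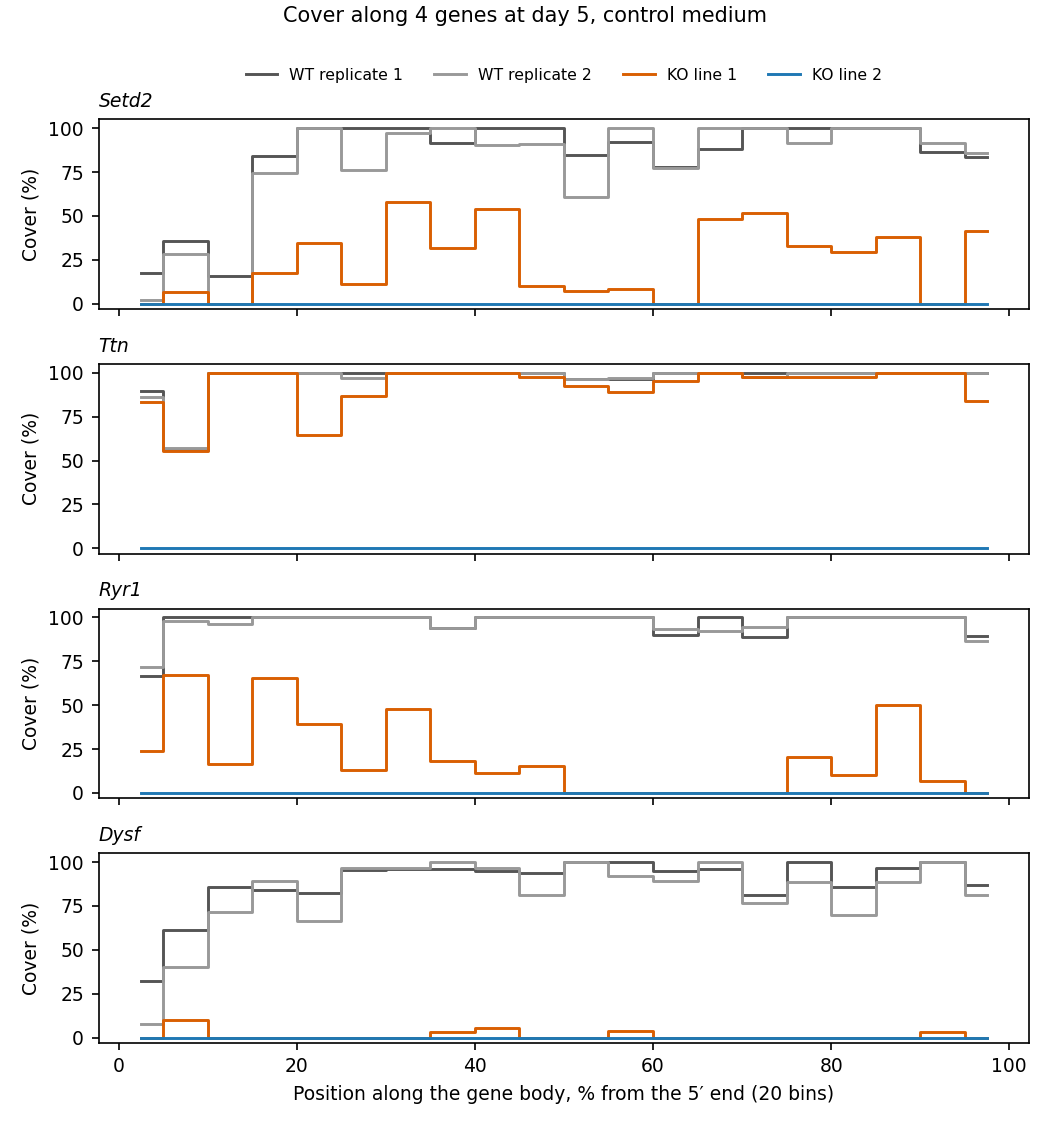
Cover (y axis, percent) in 20 bins along Setd2, Ttn, Ryr1 and Dysf from the 5′ end (x axis, percent of the gene body) in the 2 WT libraries and the 2 KO lines at day 5 in control medium. Line 1 follows WT along Ttn, is broken along Setd2 and Ryr1, and is near 0 along Dysf; line 2 is at 0 in every bin of these 4 genes.

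In the calcium coupling list 13 of 15 tested genes were lower in line 1, beside 77.8% of all genes, and 6 of 13 in the trimmed lists, beside 21.7%. Ryr1, the calcium release channel, had 96.4% in both WT libraries and 20.3% in line 1. Its line 1 cover was broken, with 67.2% in the bin centred at 7.5% of the body and 0 in the 5 bins from 52.5% to 72.5%. Cacna1s, the voltage sensor that gates this channel, had 93.1% and 90.2% in WT and 6.29% in line 1. Casq1 and Jsrp1, proteins of the calcium store, had 62.5% to 72.0% and 72.8% to 75.6% in WT and 0 in both lines. Atp2a2, a calcium pump that non-muscle cells also express, had 96.8% and 97.2% in WT and 95.2% in line 1, which did not pass the test (limma, adjusted p = 0.564). Its muscle relative Atp2a1 had 92.0% and 93.6% in WT and 42.2% in line 1, below both WT libraries. Trdn, triadin, was at 0 in both WT libraries, 20.6% in line 1 and 4.00% in line 2, and passed the filter only through line 1.

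At the neuromuscular synapse 8 of 9 tested genes were lower in line 1, beside 77.8% of all genes. After trimming 3 of 8 were lower, beside 21.7%. The acetylcholine receptor subunits differed from each other there. Chrna1 was at 55.3%, Chrnd at 29.5%, Chrng at 22.7% and Chrnb1 at 4.77% in line 1, and all were at 81.9% to 92.9% in WT. With trimmed lists Chrnd stayed called, while Chrna1, Chrnb1 and Chrng did not (limma, adjusted p = 0.0978, 0.0714 and 0.671). Rapsn, which clusters the receptor, had 79.0% and 70.8% in WT, 0 in line 1 and 3.12% in line 2. Lrp4, the agrin receptor, had 92.1% and 90.7% in WT and 31.8% in line 1. Agrn, agrin itself, had 8.76% and 8.35% in WT and 21.1% in line 1 and did not pass the test (limma, adjusted p = 0.166). It did pass where the day 5 control libraries alone were fitted. With trimmed lists Agrn was at 0 in WT and passed the filter only through line 1.

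All 11 tested genes of the dystrophin complex and membrane list were lower in line 1, beside 77.8% of all genes, and 7 of 8 in the trimmed lists, beside 21.7%. Dysf, dysferlin, a membrane repair protein, had 88.2% and 81.5% in WT and 1.27% in line 1. Sgcb, a sarcoglycan, had 87.0% and 84.1% in WT and 0 in both lines. Des, desmin, the muscle intermediate filament, had 84.7% and 88.8% in WT and 49.6% in line 1. Itga7, the laminin receptor of muscle, had 91.4% and 93.2% in WT and 68.4% in line 1, so these 4 genes ranged from 0 to 68.4% in line 1. With trimmed lists Des was not called (limma, adjusted p = 0.0543). Dmd itself was at 0 in both WT libraries.

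Of the fusion and adhesion genes 6 of 7 tested were lower in line 1, near the 77.8% of all genes. After trimming 3 of 6 were lower, beside 21.7%, and 1 was higher, beside 4.50%. Mymk, myomaker, the membrane protein needed for fusion, had 82.5% and 82.2% in WT and 44.6% in line 1. Cdh15, the muscle cadherin, had 82.3% and 83.2% in WT and 39.1% in line 1. Myof, myoferlin, had 89.3% and 86.6% in WT and 73.2% in line 1. With trimmed lists the Myof difference turned to 4.21 points and was not called (limma, adjusted p = 0.565). Mymx is under 2 kb and was not tested. In the muscle metabolism list 8 of 9 tested were lower in line 1, beside 77.8% of all genes, and 5 of 8 in the trimmed lists, beside 21.7%. Ckm, muscle creatine kinase, had 79.0% and 60.6% in WT, and Pygm, muscle glycogen phosphorylase, had 89.6% and 85.2%. Both were at 0 in both KO lines. Eno3, the muscle enolase, had 53.7% and 55% in WT and 26% in line 1. Aldoa, an aldolase of many cell types, had 69.4% and 67.7% in WT, 66.1% in line 1 and 9.29% in line 2.

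The promoter sequences of a muscle gene at 0 and of one partly covered in line 1 are shown as examples that carry the pattern described here. The windows are the 250 bases before the gene start from RefSeq on GRCm38.p6, 5′ to 3′ on the gene's strand, with the E-box CAGCTG, a letter pattern bound by MyoD-family factors, in capitals. Ckm is on the plus strand (chr7:19410844-19411093) and Acta1 on the minus strand (chr8:123894776-123895025).
Ckm: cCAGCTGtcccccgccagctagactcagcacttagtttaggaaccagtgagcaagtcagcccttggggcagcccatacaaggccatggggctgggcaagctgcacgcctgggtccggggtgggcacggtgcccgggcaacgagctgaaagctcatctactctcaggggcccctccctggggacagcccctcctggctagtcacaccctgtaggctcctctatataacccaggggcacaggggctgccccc
Acta1: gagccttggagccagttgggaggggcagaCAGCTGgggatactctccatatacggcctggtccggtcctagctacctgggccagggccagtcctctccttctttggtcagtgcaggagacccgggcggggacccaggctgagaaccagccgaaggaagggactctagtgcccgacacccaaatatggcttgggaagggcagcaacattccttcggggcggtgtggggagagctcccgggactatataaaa
The letters CAGCTG, which read alike on both strands, were found in 29 of 80 muscle genes with a promoter entry (36.3%) and in 2414 of all 19080 windows of this length (12.7%). In both windows no peak of any of the 4 libraries was called. A match is a description of letters and not a binding site.

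Of the genes that WT cells gained by day 5, line 1 marked few. A gain was defined in WT alone, as under 10% cover in both day 0 libraries and at least 50% in both day 5 control libraries. Of 86 gained genes line 1 marked 8 (9.30%) and missed 53 (61.6%). With trimmed lists it marked 26.8% of 123 gained genes and 55% of all WT-marked genes, and at a mark of 75% cover it marked 0 of 33 gained genes. Of 3911 genes marked in all 4 of these WT libraries, line 1 marked 1391 (35.6%) and missed 869 (22.2%). Among muscle genes, line 1 marked 2 of the 32 gained and 14 of the 25 that were marked from day 0. The marked gained genes were Dll1, Rbm24, Myom2, Lmod2, Pdk1, Trim72, Ip6k3 and Neb, named after their values were seen. Dll1, a Notch ligand, had 61.4% and 52.2% in WT and 73.3% in line 1, and Rbm24, a muscle splicing factor, had 87.0% and 84.3% in WT and 73.3% in line 1.

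Which WT-marked genes kept the mark in line 1 followed how strong their WT peaks were. The genes were split into 5 equal groups by the authors' fold enrichment of their WT peaks. From the weakest to the strongest group, the share marked in line 1 was 10.2%, 14.3%, 23.3%, 40.02% and 69.1%. Gained genes and those marked from day 0 were also set side by side within these groups. In the strongest group line 1 marked 23.8% of 21 gained genes and 72.7% of the 871 marked from day 0. In the weakest group it marked 0 of 15 and 11.9% of 704. Across the 4685 genes, which are not independent, Spearman's rho with line 1 cover was 0.53 for WT fold and −0.07 for gene length. The share marked in line 1 still fell with length, from 37.3% of genes of 2 to 10 kb through 33.8% and 24.6% to 17.8% of those of 100 kb or more. The values share the WT peak lists. The difference between gained and other genes was not tested.

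**Figure D3:**
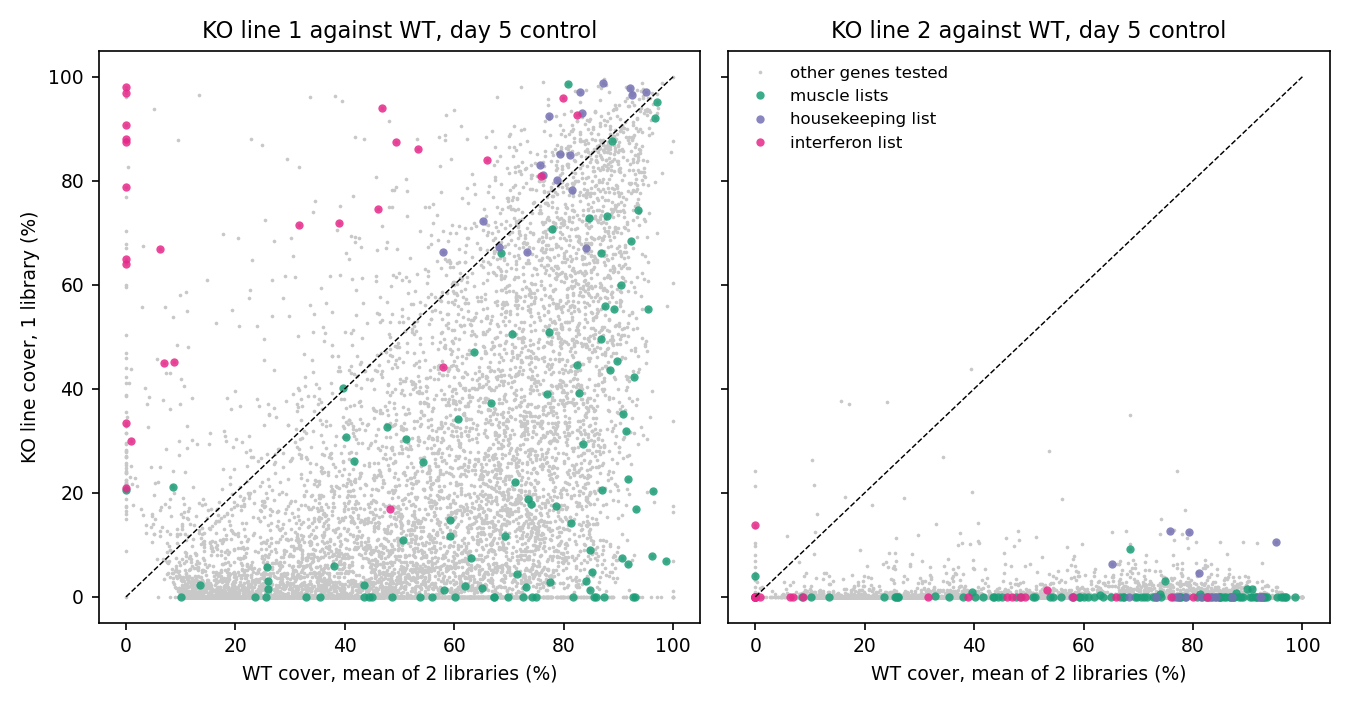
Cover of each tested gene in KO line 1 (left) and line 2 (right; y axes, percent, 1 library each) against the mean of 2 WT libraries (x axis, percent), with genes of the muscle, housekeeping and interferon lists coloured and the dashed line marking equal cover. In line 1 muscle genes spread from 0 to 98.6% mostly below the line, housekeeping genes lie near it and interferon genes mostly above it; in line 2 no gene exceeds 43.8%.

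Housekeeping genes held their cover in line 1. All 18 housekeeping genes marked in both WT libraries were marked in line 1, beside 31.4% of all such genes. Only Ncl, nucleolin, was called lower (1 of 18 tested, beside 77.8% of all genes), at 67.0% in line 1 against 82.9% and 85.5% in WT, and 2 of the 18 were called higher, beside 1.78%. Hsp90ab1, a heat shock chaperone, had 84.9% and 81.1% in WT and 97.1% in line 1, and Tubb5 had 73.0% and 81.5% in WT and 92.4% in line 1. The calls of Ncl and Tubb5 were lost with trimmed lists (limma, adjusted p = 0.0727 and 0.0695), and that of Tubb5 also without WT replicate 1 (0.101) and where the day 5 control libraries alone were fitted (0.0582). Gapdh had 78.4% and 74.1% in WT, 81.1% in line 1 and 0 in line 2. Actg1 and Eef2, genes that nearly every cell expresses, were listed at 0 in all 4 libraries, so a 0 in these lists can be a failed call.

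Cell cycle genes were lower in line 1 about as often as all genes. Of 17 tested, 13 were lower, near the 77.8% of all genes, and 2 were higher, beside 1.78%. With trimmed lists 4 could be tested, of which 2 (Cdt1 and Mcm6) passed only through line 1, and none was lower, beside 21.7%, including Mki67 (limma, adjusted p = 0.385). Mki67, a marker of dividing cells, had 51.7% and 38.5% in WT and 1.99% in line 1. Cdk1, the mitotic kinase, had 78.2% and 70.8% in WT and 4.06% in line 1, and Top2a had 75.0% and 64.4% in WT and 16.3% in line 1. Cdt1 and Mcm6, replication licensing factors, were called higher, with 58.9% and 65.2% in line 1 against 10.2% to 35.2% and 48.4% to 55.4% in WT. The calls of Cdt1 and Mcm6 were lost with peaks merged within 1 kb (limma, adjusted p = 0.105 and 0.403) and where the day 5 control libraries alone were fitted (0.0834 and 0.0855). That of Mcm6 was also lost without WT replicate 2 (0.102) and at a −log10 q of at least 3 (0.0767). Among genes of cell cycle exit, Cdkn1a (p21) had 70.1% and 65.6% in WT, 96.1% in line 1 and 0 in line 2, and was higher in line 1 (limma, adjusted p = 0.00693; 0.27 with trimmed lists). Rb1 had 55.5% and 54.3% in WT and 1.91% in line 1, so these 2 genes of the same list lay on opposite sides of WT.

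Extracellular matrix genes were mixed in line 1, with 7 of 18 tested lower, beside 77.8% of all genes, 2 higher, beside 1.78%, and 9 not called. After trimming 1 of 16 was lower, beside 21.7%, and 2 of the 13 that passed without line 1 were higher, beside 4.50%. Fn1, fibronectin, had 98.0% and 98.1% in WT and 98.8% in line 1. Col1a2 had 87.0% and 86.7% in WT and 92.5% in line 1, which did not pass the test (limma, adjusted p = 0.223) except where the day 5 control libraries alone were fitted (0.0461). Col6a1 and Col6a2, neighbouring collagen VI genes, were called higher, with 91.6% and 43.0% in line 1 against 44.7% to 51.4% and 3.69% to 12.4% in WT. The Col6a1 call was lost with peaks merged within 1 kb (limma, adjusted p = 0.124). Tnc, tenascin C, had 84.1% and 76.7% in WT and 7.05% in line 1, and Postn had 19.5% and 20.1% in WT and 0 in line 1. All 18 tested were lower in line 2, beside 95.5% of all genes.

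Genes of the lysine 36 pathway were mostly lower, as were most genes. All 13 writers, erasers and cofactors were lower in both lines, beside 77.8% of all genes in line 1 and 95.5% in line 2. In the trimmed lists 5 of 10 were lower in line 1, beside 21.7%. Nsd1, which adds the second methyl group, had 91.0% and 87.0% in WT and 23.9% in line 1. Supt6, the elongation factor that recruits SETD2, had 88.8% and 84.3% in WT and 67.8% in line 1. Kdm4a, a demethylase, had 87.6% and 88.9% in WT and 71.1% in line 1. The calls of Supt6 and Kdm4a were lost with trimmed lists (limma, adjusted p = 0.0745 and 0.468). Of 9 tested readers 8 were lower in line 1, beside 77.8% of all genes, but in the trimmed lists 1 of 8 was, beside 21.7%, with a median difference of −3.95 points. Dnmt3a had 30.0% and 26.4% in WT and 0 in line 1, and Morf4l1, the reader not called, had 78.9% and 78.2% in WT and 73.9% in line 1.

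Most markers of other cell types were without peaks, with exceptions. Of 19 measured genes of at least 2 kb, 11 were at 0 in all 4 libraries, among them Ptprc (blood), Pecam1 (endothelium) and Adipoq (fat). The summed cover over the list was 148 and 125 points in WT, 95.3 in line 1 and 1.43 in line 2. Runx2 and Sox9, factors of bone and cartilage, were at 20.8% to 25.2% and 54.3% to 64.3% over WT and line 1. Tubb3, a tubulin of neurons, had 47.9% and 39.3% in WT and 0 in both lines, and was called lower in line 1 (limma, adjusted p = 0.000278), a call lost at a −log10 q of at least 3 (0.0585). Most muscle markers were covered in WT, with Ttn, Myog, Des and Acta1 each above 84% in both libraries. Myh3, Cdh15, Myod1 and Ckm were each at 60.6% or more in both. Mef2c had 36% and 29.8%, and Myf5 was at 0.

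Along genes, mean cover was lower in line 1 than in WT in all 10 bins and rose less steeply. In 3799 WT-marked genes with a known strand, mean cover of WT rose from 15.5% and 13.2% in bin 1 of 10, at the 5′ end, to 92.2% and 90.3% in bin 8. Line 1 rose from 7.30% to 46.6% and fell to 34.7% in bin 10, where WT had 88.5% and 86.9%. Line 2 had 2.08% in bin 1 and at most 0.403% in the others. Line 2 was thus highest at the 5′ end, where WT and line 1 were lowest.

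**Figure D4:**
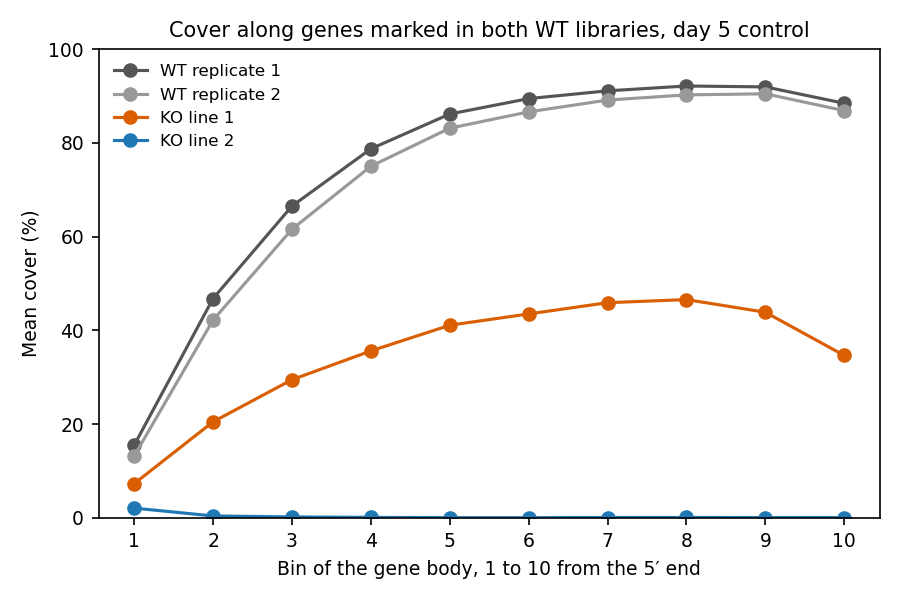
Mean cover (y axis, percent) of 3799 genes marked in both WT libraries in 10 equal bins of the gene body from the 5′ end (x axis), for each of the 4 libraries. Line 1 is highest in bin 8 at 46.6% against 92.2% and 90.3% in WT; line 2 is above 1% in bin 1 alone.

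Several of the genes with the largest gain in line 1 are known as interferon response genes. Interferons are antiviral signals that act through transcription factors of the STAT and IRF families. Among the 10 genes with the largest gain, taken by the naming rule, were Oasl2, Ifi44, Ifi207, Ifit1, Nos2, Bst2, Lgals3bp, Il15 and Gbp7. These 9 passed the filter only through line 1, so their values are given without a test. Oasl2, an oligoadenylate synthetase-like protein (chr5:114896926-114912245), was at 0 in both WT libraries, 98.0% in line 1 and 0 in line 2. Ifi44 and Ifit1 were at 0 in WT and line 2 and at 96.8% and 90.8% in line 1. Bst2, tetherin, was at 0 in WT, 88.1% in line 1 and 13.9% in line 2, where its cover was 0 with peaks limited to a −log10 q of at least 3. Nos2, inducible nitric oxide synthase, had 9.12% and 1.27% in WT and 93.7% in line 1. The naming rule admits only genes whose line 1 value lies above both WT libraries. Ifit1 lies wholly inside another annotated gene, and Ifi207, the Gbp and the Ifit genes have near-identical copies, so the placing of reads among these is uncertain.

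A list of 37 measured interferon response genes, chosen after these values were seen, was then described. Its median cover was 0 in WT, 64.0% in line 1 and 0 in line 2. Of 26 tested, 13 passed the filter on cover only through line 1 and are given by value alone. Of the other 13, 8 were higher, 1 was lower (Samhd1) and 4 were not called. Over all genes that passed without line 1, 1.78% were higher. In the trimmed lists 5 members passed without line 1, and 3 of these were higher, beside 4.50%. The list was chosen for its high values in line 1, so these counts are a description. Members with cover in WT were among those called higher. Stat2 had 80.1% and 79.8% in WT and 96.0% in line 1, and B2m, the light chain of MHC class I, had 56.2% and 42.5% in WT and 87.5% in line 1. The Stat2 call was lost with trimmed lists (limma, adjusted p = 0.0704). Irf9 had 81.9% and 70.0% in WT and 80.9% in line 1, which did not pass the test (limma, adjusted p = 0.556) but did with peaks limited to a −log10 q of at least 3 (0.00578). Samhd1 fell from 53.0% and 43.7% in WT to 16.9% in line 1. Oas1a, Oas2, Ifit3, Cxcl10, Tap1, Psmb8, Psmb9 and Dhx58 were at 0 in all 4 libraries. Of the genes that sense interferon 4 of 4 tested were lower in line 1, beside 77.8% of all genes, and 1 of 2 in the trimmed lists, beside 21.7%. Ifnar1, a receptor chain, had 78.9% and 77.3% in WT and 36.4% in line 1, and Tyk2, its kinase, had 83.5% and 67.3% in WT and 5.91% in line 1. The Ifnar1 call was lost with trimmed lists (limma, adjusted p = 0.272). The blood marker Ptprc was at 0 in all 4 libraries, while Cd68, a macrophage marker under 2 kb and so outside the fit, had 94.0% and 98.2% in WT, 74.0% in line 1 and 0 in line 2.

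**Figure D5:**
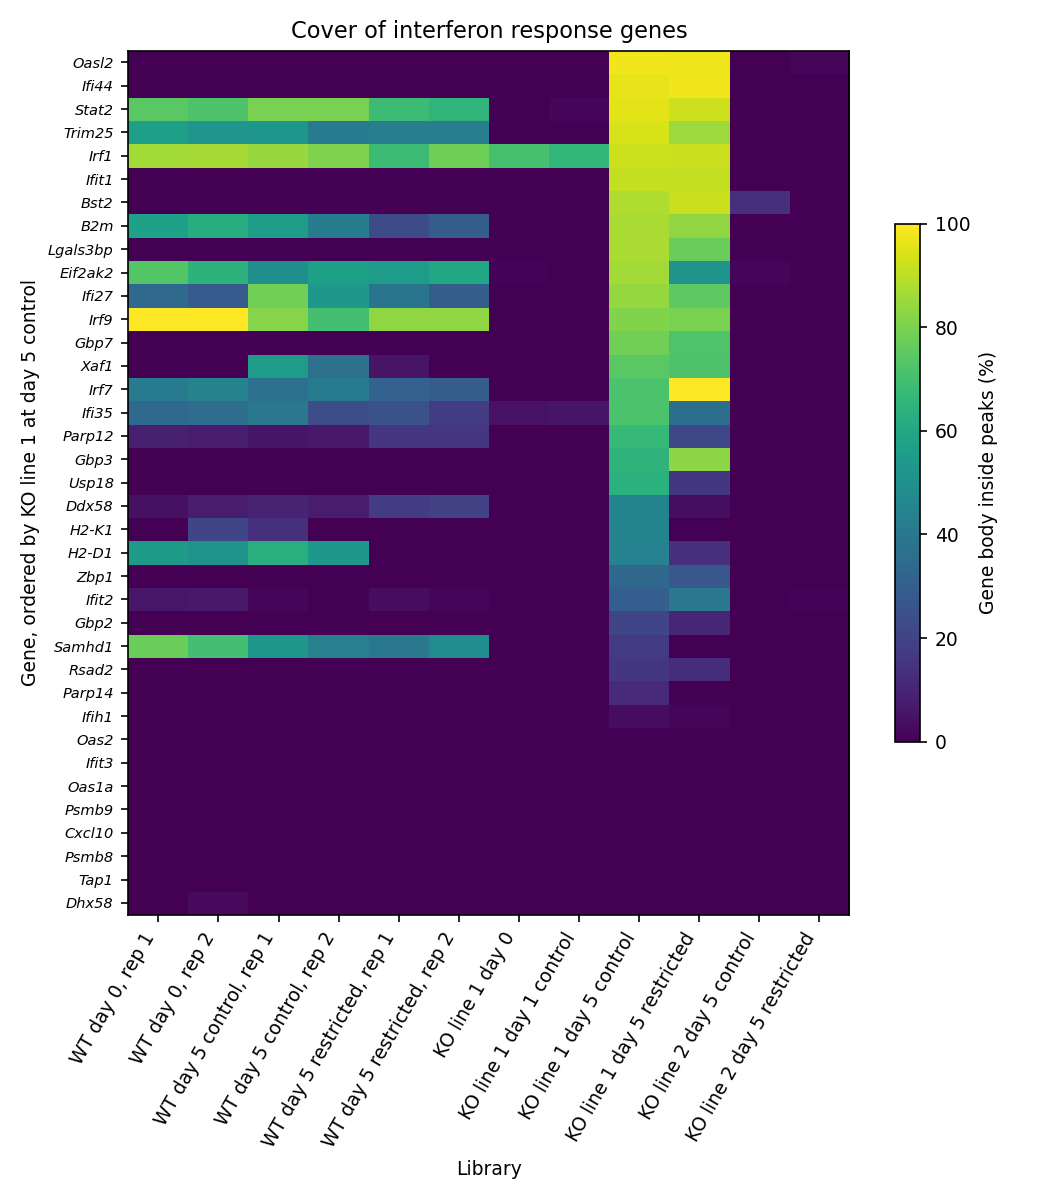
Cover (colour, percent) of 37 interferon response genes (rows, ordered by line 1 at day 5 in control medium) in 12 libraries (columns). Line 1 at day 5 has list medians of 64.0% in control medium and 27.2% under restriction, and its day 0 and day 1 libraries are near 0 except for Irf1. Both line 2 libraries are near 0 except for Bst2, at 13.9% in control medium.

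Other libraries of line 1 were also examined. Oasl2, Ifi44, Ifit1 and Bst2 were at 0 in line 1 at day 0 and in its control library of day 1. In its restricted day 5 library they were at 97.4%, 97.7%, 90.9% and 91.9%. The interferon list had a median of 27.2% there, against 0 at day 0 and at day 1. Line 1 covered little on those earlier days, and some other lists took a like course while others did not. A list of hypoxia response genes, also chosen with values known, had medians of 0 at day 0 and day 1, 89.2% at day 5 in control medium and 81.2% in restricted medium. A list of endoplasmic reticulum stress genes, chosen likewise, had 2.31%, 0, 86.8% and 18.4% in the same order. These are single libraries and were not tested.

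Promoters of 2 interferon genes are shown as examples that carry the pattern described here. Both genes had no cover in WT and over 80% in line 1, as had others such as Oasl2 and Ifi44. The capitals mark GAAANNGAAA, the letters of the interferon-stimulated response element, found on either strand, and overlapping matches run together. Ifit1 is on the plus strand (chr19:34640639-34640888) and carries its matches on the opposite strand, and Bst2 is on the minus strand (chr8:71537473-71537722).
Ifit1: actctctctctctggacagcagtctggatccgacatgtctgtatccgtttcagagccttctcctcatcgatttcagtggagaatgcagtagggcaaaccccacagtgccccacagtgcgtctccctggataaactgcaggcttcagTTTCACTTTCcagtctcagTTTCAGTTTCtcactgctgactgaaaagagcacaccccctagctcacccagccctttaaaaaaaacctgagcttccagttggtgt
Bst2: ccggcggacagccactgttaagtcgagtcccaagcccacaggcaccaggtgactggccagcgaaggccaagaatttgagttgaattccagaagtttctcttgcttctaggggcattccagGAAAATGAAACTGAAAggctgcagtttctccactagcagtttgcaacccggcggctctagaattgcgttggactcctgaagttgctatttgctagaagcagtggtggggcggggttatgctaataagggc
The pattern was found in 11 of 31 interferon genes with an entry (35.5%), in 23 of 192 genes called higher in line 1 (12%), in 0 of 80 muscle genes and in 521 of 19080 windows (2.73%). The interferon list was chosen with its values known. The genes called higher include members of that list and genes that passed the filter only through line 1. The shares are therefore a description, and the 2 sets are not separate.

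The 10 genes with the largest losses in line 1 by the naming rule had at least 91.9% cover in both WT libraries. Elmo3 and Tnfrsf25 were at 100% in both WT libraries and 0 in both KO lines. Obsl1, a cytoskeletal adaptor, had 92.9% and 94.5% in WT and 0 in both lines. Mcm3ap, an mRNA export factor of 47.0 kb, had 94.9% and 93.8% in WT and 0 in both lines. The other 6 by the naming rule were Amigo3, Lime1, Eif4ebp3, Amh, Dnase1l2 and Gnrh1, all under 5 kb, with at most 1.10% in line 1. Amigo3, Dnase1l2 and Gnrh1 were not called with trimmed lists (limma, adjusted p = 0.409, 0.121 and 0.33), and Lime1 was not tested in them. Amigo3 and Lime1 lie wholly inside other annotated genes. The genes with the highest cover in line 1 were Rsc1a1, Bnip3, Ddit3, Ndrg1 and Fn1, at 98.8% to 100% there and 75.8% or more in WT.

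Line 2 differed in kind as well as in extent. Of its covered bases 38.2% lay in gene bodies, against 95.5% in both WT libraries and 90.1% in line 1. Only 3.01% and 2.61% of its bases lay inside the WT peaks, while 20.9% lay inside line 1 peaks. Of its peaks 5.56% touched the 250 bases before a gene, against 0.344% in line 1 and 0.534% and 0.457% in WT. Its 5 best covered genes were Ly6e, Jund, Pcgf1, Gdf15 and Rps16. Ly6e, a membrane protein induced by interferon, had 40.6% and 38.3% in WT, 95.4% in line 1 and 43.8% in line 2. Jund, of the AP-1 family, had 14% and 17.3% in WT, 0 in line 1 and 37.7% in line 2 (limma, adjusted p = 0.00122). No gene was called higher in line 2 with peaks limited to a −log10 q of at least 3, where Jund did not pass the filter on cover. Gdf15, a stress-induced cytokine, had 19.3% and 14.9% in WT, 14.5% in line 1 and 37.0% in line 2 (limma, adjusted p = 0.00168). With that limit Gdf15 turned direction in line 2, to −17.1 points (limma, adjusted p = 0.00756). Rps16, a ribosomal protein, had 70.7% and 66.4% in WT, 79.5% in line 1 and 35.0% in line 2. These genes are short, at 2.01 to 4.88 kb, so a single peak takes up much of the body.

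The 2 lines were set side by side gene by gene. Both lay below both WT libraries for 8119 of 9048 genes tested, and both lay above for 22. Line 1 lay above and line 2 below both WT libraries for 551. Line 1 lay above both WT libraries for 645 genes (7.13%) and line 2 for 26 (0.287%). Of the 9048 genes, 152 were called higher in line 1 and lower in line 2, and 11 were called higher in both. Over all genes tested 2.91% were called higher in line 1, 95.5% lower in line 2 and 0.166% higher in line 2. All these counts include the genes that passed the filter only through line 1. Both comparisons use the same WT libraries, and the difference between the lines was not tested.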

How the data were processed

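The authors deposited 1 broad-peak list per library, with a score, a fold enrichment ratio over background, and −log10 p and −log10 q per peak. The build is GRCm38 per the submitters' processing notes; caller, control and filters are not given in the sources used here. The fold was used to rank peaks and −log10 q to filter them; the score and −log10 p were not used. Reads were 75 nt, single end, per the labels' protocols. Depth is unknown, so no counting intervals are given.

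Peaks of a library were merged and intersected with RefSeq gene bodies on GRCm38.p6; where genes overlap, a shared peak adds to every one of them. Cover was tested with limma 3.58.1 (R 4.3.3; lmFit, eBayes with trend and robust) on 12 libraries in 7 groups, the 10 WT libraries and the day 5 control library of each KO line, with Benjamini-Hochberg adjustment over all genes tested and calls at an adjusted p under 0.05. The interval arithmetic differed from base-by-base counting in 0 of 200 simulated sets. In a simulated line 1 library, the fit called 34.5% of 200 genes changed by −30 points, and 0% of its calls were false. A gene that was not called is thus not shown to be unchanged. Strand came from the promoter table, with no entry for 3976 genes. Replicates carry numbers only, and nothing in the labels says that they are separate cultures, so p-values measure the spread between these samples. Named genes were Setd2, list members, up to 10 genes per direction by difference outside the WT range, and the 5 best covered per line. Members and lists were chosen with earlier results of these data known. Some genes that the lists or the naming rule hold are not reported here.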

Additional observations from a re-analysis of the deposited data

Results flagged for a closer look

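In 23 named genes the single library of line 1 lay above both WT libraries and that of line 2 below both, and the difference between the lines was not tested. Among genes of the interferon and stress lists, line 1 had 87.5% for B2m, 96.0% for Stat2, 92.6% for Irf1, 99.1% for Ddit3, 98.1% for Herpud1 and 86.8% for Trib3. In the hypoxia list it had 99.7% for Bnip3, 68.4% for Car9 and 98.8% for Ndrg1. In the matrix list it had 92.5% for Col1a2, 91.6% for Col6a1, 43.0% for Col6a2 and 98.8% for Fn1. Of the cell cycle lists Cdkn1a had 96.1%, Cdt1 58.9% and Mcm6 65.2%, and of the housekeeping list Gapdh had 81.1%, Hsp90ab1 97.1% and Tubb5 92.4%. Agrn had 21.1%, Runx2 25.2%, Cxcl12 67.5% and Rps16 79.5%. Line 2 was at 0 for these genes except Bnip3, Runx2 and Rps16. Over all genes tested 551 showed this pattern.

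The restricted day 5 library of line 1, which enters no test, covered Oasl2 to 97.4%, Ifit1 to 90.9% and Ifi44 to 97.7%. These genes were at 0 in both restricted WT libraries of day 5.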

How the results depend on the processing

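The WT peak lists were trimmed to the length of line 1. Calls in line 1 went from 7305 to 2004 (lower 7042 to 1236, higher 263 to 768) and in line 2 from 8659 to 3315 (lower 8644 to 3280, higher 15 to 35). In line 1 lower calls became 48 of the muscle list, 0 of the cell cycle, 1 of the matrix and 0 of the housekeeping, interferon, hypoxia and stress lists. Higher calls became 3, 2, 5, 1, 23, 5 and 7 in these lists, or 1, 0, 2, 1, 3, 4 and 5 without genes that passed the filter only through line 1. The share of WT-marked genes marked in line 1 became 55% and that of gained genes 26.8%. Of the named genes called as deposited, Myof (4.21 points) turned direction in line 1. A −log10 q of at least 3 left 164 higher calls in line 1 and 0 in line 2 (where all calls were 6091), 0 higher calls in the muscle and cell cycle lists, 0 lower calls in the interferon and stress lists, 5 cell cycle lower calls, and a marked share of 28.4%, and it turned Gdf15 in line 2 to −17.1 points. Without a filter on cover the higher calls were 944, 491 in line 2 and 2 in the muscle list, and with all gene lengths line 2 had 29. With peaks merged within 1 kb the share was 34.3%, with 0 cell cycle higher, 4 housekeeping higher and 0 hypoxia lower calls. Fitting the day 5 control libraries alone gave 2 muscle higher, 0 cell cycle higher, 5 matrix higher, and 2 lower and 5 higher hypoxia calls. Marking at 25% or 75% cover gave shares of 41.8% and 24.0%, and 0% of gained genes at 75%.

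The replicate block gave 7224 calls in line 1 and 8637 in line 2 and 1 higher hypoxia call against 3. The numbers do not pair the samples, with correlations of replicate deviations from −0.44 to 0.06. Leaving out a WT replicate gave 6620 to 6971 calls in line 1 (lower 6345 to 6746, higher 225 to 275) and 8393 to 8530 in line 2. It gave 80 to 84 muscle lower, 1 to 2 cell cycle higher, 1 to 2 interferon lower, 1 to 2 hypoxia lower, 1 to 5 hypoxia higher and 4 to 5 stress higher calls, and shares of 28.8% to 30.7%. Over 124 named genes and all alternatives, 1069 of 1143 values kept both direction and side of the threshold. Another 12 values, of 9 genes not called as deposited, changed sign and stayed uncalled, among them Mef2d (12.1 points) and Flnc (0.29) with trimmed lists. The causes of these shifts were not tested. Unknown depth limits every comparison of cover between libraries.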

Other observations

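Genes of the endoplasmic reticulum stress response, a list chosen after seeing the values, were high in line 1. Of 13 tested, 7 were higher, beside 1.78% of all genes, and 2 were lower, beside 77.8%. In the trimmed lists 9 passed the filter without line 1, of which 5 were higher, beside 4.50% of all such genes, and 0 were lower. Herpud1, which helps to clear misfolded proteins, had 73.5% and 71.0% in WT and 98.1% in line 1. Trib3, a pseudokinase of the stress response, had 38.5% and 11.3% in WT and 86.8% in line 1. Atf3 had 38.8% and 39.2% in WT and 6.38% in line 1. All 15 were at 0 in line 2. The number of higher stress calls was smaller when a WT replicate was left out, as given above. Hypoxia response genes, a list also chosen after seeing the values, were mostly not called. Of 17 tested, 3 were higher and 1 was lower in line 1, beside 1.78% and 77.8% of all genes, with 4 higher and 0 lower of 16 that passed without line 1 in the trimmed lists, and 14 lay above both WT libraries. The number of higher hypoxia calls moved both ways when a WT replicate was left out, as given above. The median difference was 5.56 points as deposited and 23.3 points in the trimmed lists. All 13 marked in both WT libraries were marked in line 1. Car9, a carbonic anhydrase, had 30.8% and 23.4% in WT and 68.4% in line 1. Pdk1 had 89.5% and 88.4% in WT and 65.9% in line 1, a call lost with trimmed lists (limma, adjusted p = 0.118) and with peaks merged within 1 kb (0.0618).

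In all, 23 genes were marked in line 1 and under 10% in both WT libraries, of which 9 belong to the interferon list. The other 14 included Ifi207 at 96.1% in line 1, Nos2 at 93.7% and Il15 at 82.6%, all named above among the largest gains. Also among them were Casp4, an inflammatory caspase, at 67.0%, and Cxcl12, a chemokine, at 67.5%. Xdh was at 70.4%, Sod3 at 67.9% and Apobec1 at 64.1%. The split depends on which genes were put on the interferon list, which was chosen with values known.

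Peak density differed among chromosomes. Chromosome 15 was the one with more peaks per Mb in line 1 (36.9) than in the WT mean (30.4), and it was also the densest in line 2 (12.6). Chromosome 12 had 13.8 in line 1 and 30.8 in WT, and chromosome X had 4.45 and 12.1.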
